A study of Mus musculus with 9 samples.

Results

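Malat1 and Neat1 are neighbouring long noncoding RNAs of the cell nucleus, and they are described here with 7 genes for proteins that build paraspeckles or decide which Neat1 transcript is made: Nono, Sfpq, Pspc1, Rbm14, Hnrnpk, Cpsf6 and Nudt21. The 9 genes were chosen by symbol and not by their values, each symbol matched 1 identifier, and they are 9 of the 19072 gene identifiers in the tables. RNA was sequenced from cultured 4T1-TGL cells, which come from 4T1, a mammary carcinoma line of BALB/c mice, and were grown in DMEM/F12 medium. The groups were KO2 and KO1, both labelled as Malat1 knockout lines, and Ctrl, the same cells with Malat1, with 3 libraries each. How Malat1 was disrupted is not given in the sources used here, nor is whether each line is a single clone, so line and genotype cannot be told apart. Nothing in the labels tells separate cultures from repeat libraries of 1 culture, so p-values measure the spread between these libraries, which may be technical.

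As background, Malat1 is an abundant RNA of nuclear speckles, the bodies that hold splicing factors. Neat1 is the scaffold of paraspeckles: a short transcript ends at an early polyadenylation site, while a long transcript reads through it and carries the proteins that form the body. In human cells HNRNPK keeps the NUDT21 and CPSF6 complex from using the early site, and NONO, SFPQ and RBM14 are needed for paraspeckles to form.

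The total of estimated counts per library ran from 30655924 to 35406395, and all 9 genes were listed in all 9 libraries and passed the filter on low counts. FPKM, the authors' value per transcript length and library size, is used below for levels. Differences are log2 fold changes from the quasi-likelihood test of edgeR on counts, fitted on 13682 genes, with p-values adjusted by Benjamini and Hochberg over all of them and called under 0.05. The labels do not say whether libraries kept the strand or selected polyadenylated RNA. Estimated counts of Malat1, Rbm14, Hnrnpk and Nudt21 were not whole numbers in any library, so part of their reads was shared with other genes or copies and their values are less certain. In GRCm38, Malat1 is overlapped by the antisense model Gm37376, Rbm14 by Gm21844 and Hnrnpk by Rmi1, and reads of such partners cannot be told apart without strand.

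Malat1 lies on the minus strand at chr19:5795690-5802672 and Neat1 on the same strand at chr19:5824708-5845480, with 22035 bases between them. Malat1 and the long Neat1 transcript are known to end without a poly(A) tail: RNase P cuts a transfer RNA-like structure off behind them, and U-rich motifs fold with an A-rich tract into a triple helix that protects the end. The last 100 bases of long Neat1, and the 100 bases of Malat1 that end with the same 11 letters, are shown because both RNAs share this feature. They are DNA letters on the transcript strand from the GENCODE M21 transcripts of GRCm38, and capitals mark every run of at least 8 bases found in both stretches.
Malat1: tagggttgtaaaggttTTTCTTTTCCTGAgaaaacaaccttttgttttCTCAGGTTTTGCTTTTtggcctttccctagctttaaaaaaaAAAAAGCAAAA
long Neat1: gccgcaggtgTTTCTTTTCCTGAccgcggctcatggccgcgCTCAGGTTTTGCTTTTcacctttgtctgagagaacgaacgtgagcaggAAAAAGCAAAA
The Malat1 stretch is chr19:5795982-5796081, and 292 bases of its 6983-base model follow it; the Neat1 stretch is chr19:5824708-5824807 and ends the 20771-base model. The 3 shared runs are 2 T-rich stretches, TTTCTTTTCCTGA and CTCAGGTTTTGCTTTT, and the A-rich end AAAAAGCAAAA, in the same order in both RNAs. Among the last 100 bases of 137364 GENCODE transcripts of at least 120 bases, searched on the transcript strand, the first run was found in 2, the second in 1 and the third in 64. Long Neat1 itself is in each of these counts. The Malat1 stretch shown ends 292 bases before its model does, so that model was not searched there. The short Neat1 transcript ends at another kind of site. Its last 120 bases, chr19:5842307-5842426 on the minus strand, are shown because the early polyadenylation site is where Hnrnpk, Nudt21 and Cpsf6 act. Capitals mark AATAAA, the polyadenylation signal, and TGTA, the letters that Nudt21 binds as UGUA in RNA.
short Neat1: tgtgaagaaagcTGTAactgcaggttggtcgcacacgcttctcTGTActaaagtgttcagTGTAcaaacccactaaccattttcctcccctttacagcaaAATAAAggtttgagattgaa
The 3 TGTA matches began 107, 76 and 59 bases before the last base, and AATAAA began 19 bases before it. At least 1 TGTA was found in the last 120 bases of 42.2% of transcripts, at least 3 in 3.72%, AATAAA in 29.8%, and at least 3 TGTA with AATAAA in 1.88%. These matches are descriptions of the letters and not measured sites.

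Malat1 was lower in both lines, to very different degrees. It had 16.5, 22.2 and 13.4 FPKM in KO2, 0.58, 0.54 and 0.39 FPKM in KO1, and 74.1, 58.1 and 69.5 FPKM in Ctrl. The groups did not overlap: all KO1 libraries were below 1 FPKM, and the KO2 libraries lay between KO1 and Ctrl. In CPM, counts scaled to library size, KO2 held 27.2% of the Ctrl mean and KO1 held 0.735%. The log2 fold change was -1.88 (SE 0.178, adjusted p = 1.37e-05, edgeR) in KO2 and -7.08 (SE 0.236, adjusted p = 2.55e-08) in KO1, each against Ctrl, and 5.21 (SE 0.222, adjusted p = 3.76e-08) in KO2 against KO1. Malat1 was the 3646th to 5483rd most abundant gene by FPKM in KO2 libraries, the 12221st to 12668th in KO1 and the 1000th to 1349th in Ctrl. In bulk RNA, fewer cells with Malat1 and less Malat1 per cell cannot be told apart. A read on any part of Malat1 counts toward these values, so they do not show which part of the RNA remained.

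Neat1, the RNA next to it, was higher in KO2 and did not pass the test in KO1. It had 582, 671 and 480.5 FPKM in KO2, 348, 342 and 309 FPKM in KO1, and 304, 247 and 315 FPKM in Ctrl. Every KO2 library was above all the others, while KO1 and Ctrl overlapped. Against Ctrl, the log2 fold change was 1.08 (SE 0.121, 95% interval 0.81 to 1.34, adjusted p = 2.58e-05, edgeR) in KO2 and 0.18 (SE 0.12, interval -0.09 to 0.44, adjusted p = 0.30) in KO1. KO2 was also above KO1, by 0.90 (SE 0.121, adjusted p = 9.23e-05). Among all tested genes, 15.3% had a larger absolute change than Neat1 in KO2 against Ctrl. Neat1 was thus the higher of the 2 RNAs in every library, and KO2, the line with more Malat1 left, had the more Neat1.

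The ratio of Neat1 to Malat1 FPKM is given as a description. Its denominator is the targeted gene, so its differences between the groups contain the loss of Malat1 and are not separate evidence on Neat1. In KO2 the higher Neat1 also entered the ratio, with mean FPKM at 200% of Ctrl beside 25.8% for Malat1. It was 33.8 ± 3.06 in KO2, 675 ± 104 in KO1 and 4.3 ± 0.217 in Ctrl (SD, n = 3 each). The mean was 7.86 times that of Ctrl in KO2 and 157 times in KO1, where Neat1 itself was not called. An exact two-sided permutation test over libraries gave p = 0.1 for each pair of groups, the smallest that 3 against 3 libraries allow, and 0.188 after adjustment over the 30 tests made on 10 ratios and shares of members. Within each group the library lowest in Malat1 was also lowest in Neat1: replicate 3 in KO2, replicate 3 in KO1 and replicate 2 in Ctrl. Sfpq and the noncoding RNAs Tug1 and Fendrr were also lowest in those KO2 and Ctrl libraries, but not in KO1 replicate 3. In KO2 and Ctrl this order was thus not particular to Malat1 and Neat1. The coefficient of variation between libraries was 25.6% for Malat1, 16.5% for Neat1 and 9.07% for the ratio in KO2, against 12.2%, 12.7% and 5.04% in Ctrl. In KO1, where Malat1 was near the bottom of the range, the ratio varied by 15.4% and Neat1 alone by 6.17%.

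**Figure D1:**
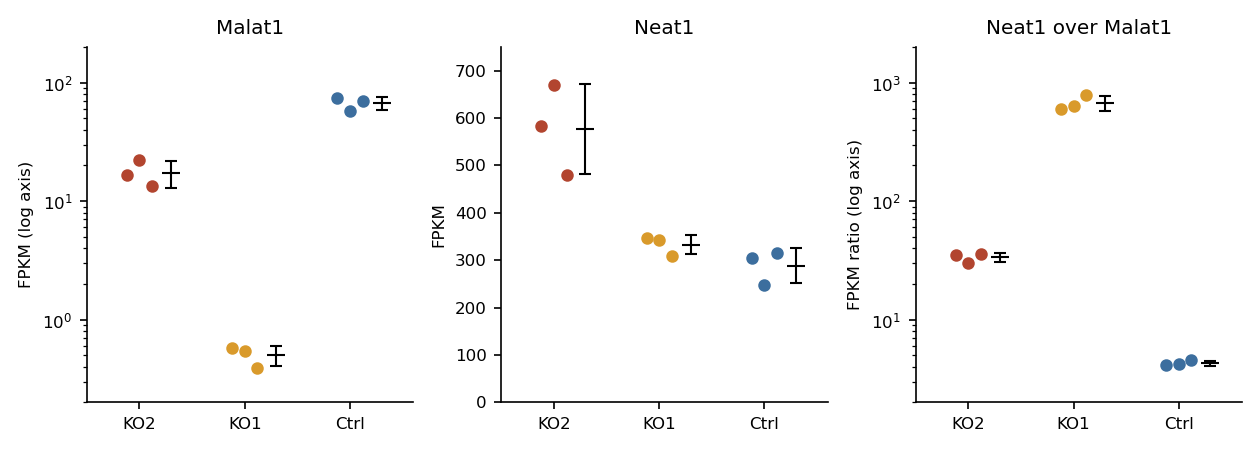
FPKM of Malat1 (log axis), FPKM of Neat1 (axis from 0) and their ratio (log axis) in each library of KO2, KO1 and Ctrl; points are libraries and bars are the mean ± SD of 3. Malat1 is lowest in KO1 (0.503 ± 0.1 FPKM) and Neat1 is highest in KO2 (578 ± 95.1 FPKM).

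The tables gave no level for the short and long Neat1 transcripts apart, but a mean transcript length per gene, which moves with their shares where both are counted. For Neat1 it was 3197, 3196 and 3199 bases in KO2, 3197, 3200 and 3195 bases in KO1, and 3199, 3197 and 3199 bases in Ctrl. The groups overlapped and all 9 libraries lay within 5.23 bases. KO2 was 1.06 bases shorter on average than Ctrl and KO1 was 0.81 bases shorter (exact permutation p = 0.4 and 0.6, two-sided). For Neat1, 2 RefSeq transcripts were listed without their separate lengths, so whether the long form was counted is not known. The GENCODE models are a short form of 3004 bases after splicing and a long form of 20771 bases. If these were the 2 counted, the mean lengths allow the long form at most 1.08% to 1.11% of Neat1 molecules. The whole range between libraries would then correspond to 0.0294% of molecules. In that case the authors' pipeline assigned the RNA behind the 1.08 log2 difference of Neat1 in KO2 almost entirely to the short form. Whether library preparation left out RNA without a poly(A) tail, such as the long form, was not tested.

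Among the 9 genes, 3 were higher and 3 lower in KO2 against Ctrl, beside 54.1% of all tested genes called in that comparison (24.6% higher and 29.5% lower). In KO1 against Ctrl 3 were lower and 6 were not called, beside 30.5% of all genes called (15.6% higher and 14.9% lower). In KO2 against KO1, 7 were higher and 1 was lower, beside 55% of all genes called (25.5% higher and 29.5% lower). The median log2 fold change of the 9 was 0.20 in KO2 against Ctrl, -0.06 in KO1 against Ctrl and 0.31 in KO2 against KO1, beside -0.03, -0.00 and -0.02 over all tested genes. KO2 and KO1 were set against the same Ctrl libraries, so those comparisons are not independent.

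**Figure D2:**
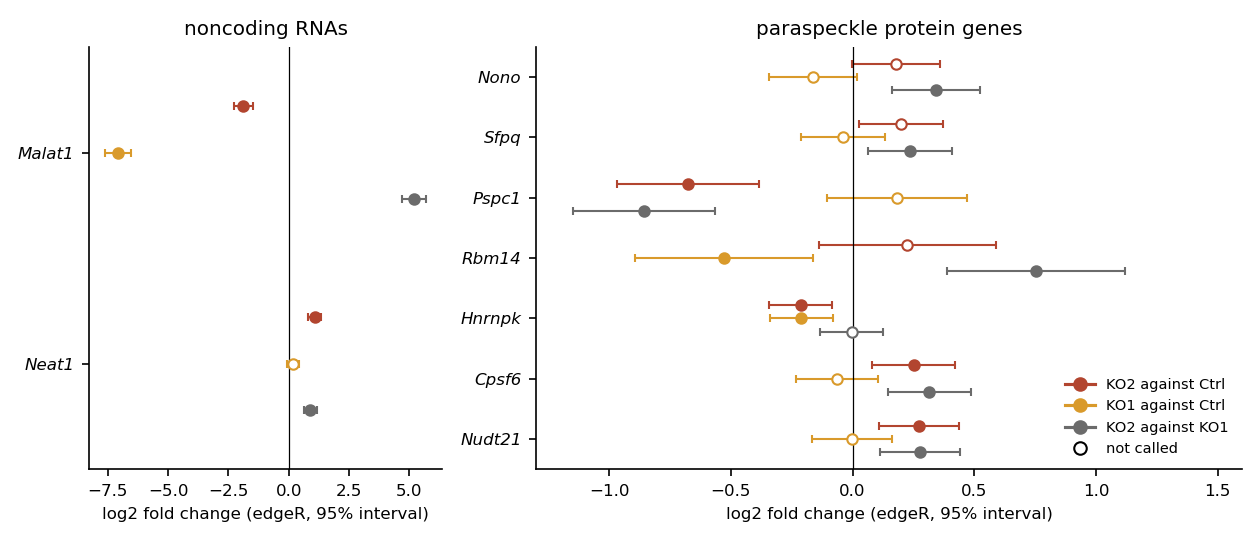
Log2 fold changes (x axis) of Malat1 and Neat1 at left and of the paraspeckle protein genes at right, with 95% intervals, for KO2 against Ctrl, KO1 against Ctrl and KO2 against KO1; filled points were called and open points were not. Pspc1 in KO2 and Rbm14 in KO1 lie farthest below 0 among the protein genes against Ctrl (-0.68 and -0.53).

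Nono, Sfpq and Pspc1 encode the DBHS proteins, RNA-binding proteins that pair with each other and coat Neat1. Pspc1, which is enriched in paraspeckles but not required for them, was the member of this family called against Ctrl. It had 19.8, 18.7 and 18.5 FPKM in KO2, 44.8, 28.7 and 37.8 FPKM in KO1, and 30.6, 34.5 and 31.0 FPKM in Ctrl. All KO2 libraries were below all others, and KO1 spread to both sides of Ctrl. Against Ctrl the log2 fold change was -0.68 (SE 0.132, adjusted p = 0.00135, edgeR) in KO2 and 0.18 (SE 0.13, interval -0.11 to 0.47, adjusted p = 0.327) in KO1. Without KO1 replicate 2, the lowest of its group, the KO1 value was 0.33 and passed (adjusted p = 0.0146). KO2 was below KO1 by 0.86 on the log2 scale (-0.86, SE 0.132, adjusted p = 0.000272).

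Nono and Sfpq, the abundant partners without which paraspeckles do not form, did not pass the test against Ctrl in either line. Nono had 384, 379 and 374 FPKM in KO2, 280.1, 346 and 341 FPKM in KO1, and 369, 345 and 346 FPKM in Ctrl. Every KO2 library was above every Ctrl library, but the difference of 0.18 (SE 0.0823, interval -0.00 to 0.36, adjusted p = 0.0872) did not pass, nor did -0.16 (SE 0.0823, adjusted p = 0.164) in KO1. Nono passed in KO2 without KO1 replicate 1 (adjusted p = 0.0177) or KO1 replicate 2 (0.0439) left out of the fit, although these libraries are in neither group compared. Sfpq had 146, 152 and 143 FPKM in KO2, 135, 125 and 136 FPKM in KO1, and 146, 122 and 138 FPKM in Ctrl. In FPKM all KO2 libraries were above KO1, and Ctrl overlapped with both. In CPM, KO2 (443 to 470) was also above Ctrl (351 to 433). Its log2 fold change was 0.20 (SE 0.0784, interval 0.02 to 0.37, adjusted p = 0.0525) in KO2 and -0.04 (SE 0.0784, adjusted p = 0.736) in KO1, both against Ctrl. The KO2 value was close to the threshold: it passed with DESeq2 (adjusted p = 0.0308) and when 1 library was left out: Ctrl replicate 1 (0.0175), KO1 replicate 1 (0.0462) or KO1 replicate 2 (0.035). KO2 was above KO1 for Nono by 0.34 (SE 0.0824, adjusted p = 0.00464) and for Sfpq by 0.24 (SE 0.0784, adjusted p = 0.0238), the Sfpq call being lost without KO1 replicate 3 (0.0651) or KO2 replicate 2 (0.0789).

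Within the summed FPKM of these 3 genes, Pspc1 made up 3.49% ± 0.0971 in KO2, 7.6% ± 2 in KO1 and 6.17% ± 0.646 in Ctrl (SD, n = 3 each). Nono made up 69.6%, 65.5% and 67.9% and Sfpq 26.9%, 26.9% and 26.0% in KO2, KO1 and Ctrl. The KO2 share of Pspc1 did not overlap with the others, at the smallest exact permutation p that the design allows, 0.1. Neat1 per Nono, as a ratio of FPKM, was 1.52 ± 0.241 in KO2, 1.05 ± 0.174 in KO1 and 0.817 ± 0.0979 in Ctrl. Exact permutation gave p = 0.1 in KO2 and 0.2 in KO1, each against Ctrl. The mean Neat1 length stayed near that of the short form, so this ratio does not measure the long form.

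**Figure D3:**
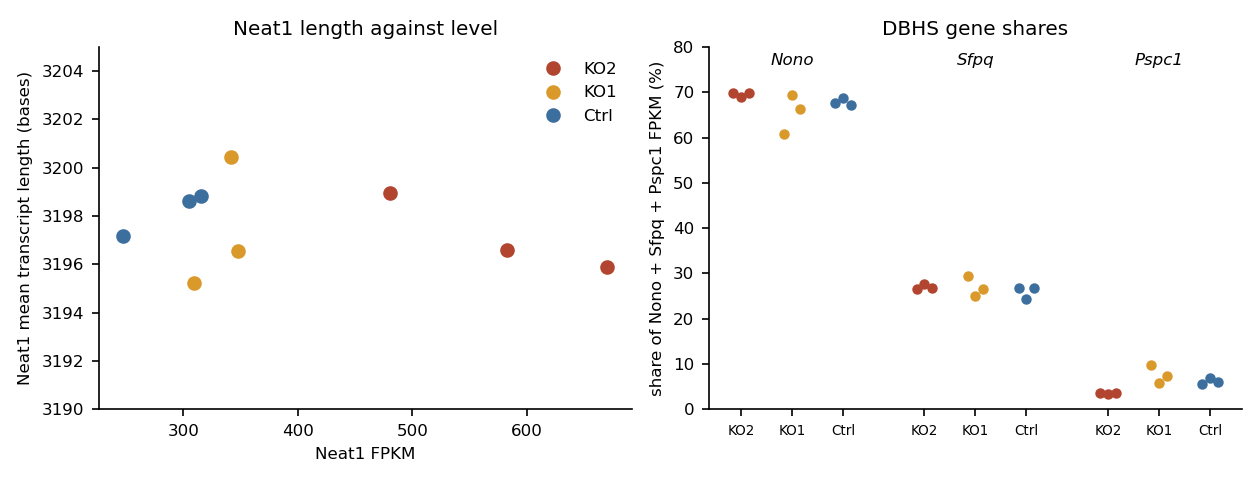
Left, mean Neat1 transcript length in bases against Neat1 FPKM in each of the 9 libraries (length axis not from 0). Right, the share of Nono, Sfpq and Pspc1 in their summed FPKM by library; the Pspc1 share is lowest in KO2, between 3.40% and 3.59%.

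Rbm14 encodes a protein with a prion-like domain that brings paraspeckle subunits together. It had 14.8, 14.5 and 16.1 FPKM in KO2, 6.96, 12.3 and 9.72 FPKM in KO1, and 14.6, 12.8 and 13.6 FPKM in Ctrl. All KO1 libraries were below Ctrl, with replicate 1 the lowest, while KO2 and Ctrl overlapped in FPKM. In CPM, KO2 (47.0 to 53.0) was above Ctrl (39.8 to 45.2). The log2 fold change in KO1 against Ctrl was -0.53 (SE 0.165, interval -0.89 to -0.16, adjusted p = 0.0334, edgeR), and in KO2 it was 0.23 (SE 0.163, interval -0.14 to 0.59, adjusted p = 0.266). The KO1 call was lost without Ctrl replicate 1 (adjusted p = 0.0989), Ctrl replicate 2 (0.0506), Ctrl replicate 3 (0.0731) or KO1 replicate 3 (0.0859), and with no filter on low counts (0.0546). Without KO1 replicate 1 the KO1 value was -0.34. KO2 was above KO1 by 0.75 (SE 0.165, adjusted p = 0.00294).

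Hnrnpk, the protein that in human cells favours the long Neat1 transcript, was the only protein gene here called in both lines. It had 325, 328 and 331 FPKM in KO2, 356, 360.4 and 345 FPKM in KO1, and 418, 390.4 and 395 FPKM in Ctrl. In FPKM the groups did not overlap, with KO2 lowest and Ctrl highest. In CPM, KO2 (936 to 968) and KO1 (925 to 974) overlapped, and both were below Ctrl. The log2 fold change from counts was -0.21 in both lines (SE 0.0589 each, interval -0.34 to -0.08 each), with an adjusted p of 0.01 in KO2 and 0.019 in KO1. The KO1 call was lost without Ctrl replicate 1 (adjusted p = 0.0688) or KO1 replicate 3 (0.0846). The lines did not differ by the test (-0.00, interval -0.13 to 0.13, adjusted p = 0.971). A change this small was common: 66.9% of tested genes had a larger absolute change in KO2 and 50.8% in KO1.

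Cpsf6 and Nudt21 encode the subunits of cleavage factor I, which binds UGUA and, in human cells, promotes the short Neat1 transcript. Cpsf6 had 24.9, 25.8 and 24.9 FPKM in KO2, 22.6, 22.01 and 20.8 FPKM in KO1, and 24.5, 20.0 and 22.6 FPKM in Ctrl. Nudt21 had 101.4, 97.5 and 101.2 FPKM in KO2, 84.1, 93.2 and 89.8 FPKM in KO1, and 91.0, 91.0 and 79.9 FPKM in Ctrl. For both genes the KO2 libraries were above all the others, and KO1 overlapped with Ctrl. In KO2 against Ctrl, Cpsf6 was higher by 0.25 (SE 0.0772, interval 0.08 to 0.42, adjusted p = 0.0175) and Nudt21 by 0.27 (SE 0.0745, interval 0.11 to 0.44, adjusted p = 0.00949). In KO1 the values were -0.06 (SE 0.0772, adjusted p = 0.569) for Cpsf6 and -0.00 (SE 0.0745, adjusted p = 0.982) for Nudt21. KO2 was above KO1 by 0.31 (SE 0.0772, adjusted p = 0.00515) for Cpsf6 and 0.28 (SE 0.0745, adjusted p = 0.00878) for Nudt21. The Cpsf6 call in KO2 was lost without Ctrl replicate 2 (adjusted p = 0.0623) or KO2 replicate 2 (0.0555), with scaling by total count (0.0809) and with limma on FPKM (0.084 and 0.0838 at pseudocounts of 1 and 0.1).

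Changes of this size were common for these genes too: 61.8% of tested genes had a larger absolute change than Cpsf6 in KO2 and 58.8% had a larger one than Nudt21. Hnrnpk per Nudt21, as a ratio of FPKM, was 3.28 ± 0.0825 in KO2, 3.98 ± 0.221 in KO1 and 4.61 ± 0.328 in Ctrl, and the groups did not overlap (SD, n = 3 each, exact permutation p = 0.1 for each pair). Cpsf6 per Nudt21 was 0.252 ± 0.0108 in KO2, 0.246 ± 0.0204 in KO1 and 0.257 ± 0.0334 in Ctrl, with overlapping groups (exact permutation p = 0.9 in KO2 and 0.8 in KO1, against Ctrl). The mean transcript length of Cpsf6 was 4.19 bases longer in KO2 and 3.19 bases longer in KO1 than in Ctrl, without overlap (exact permutation p = 0.1 each), within a total range of 6572 to 6582 bases.

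**Figure D4:**
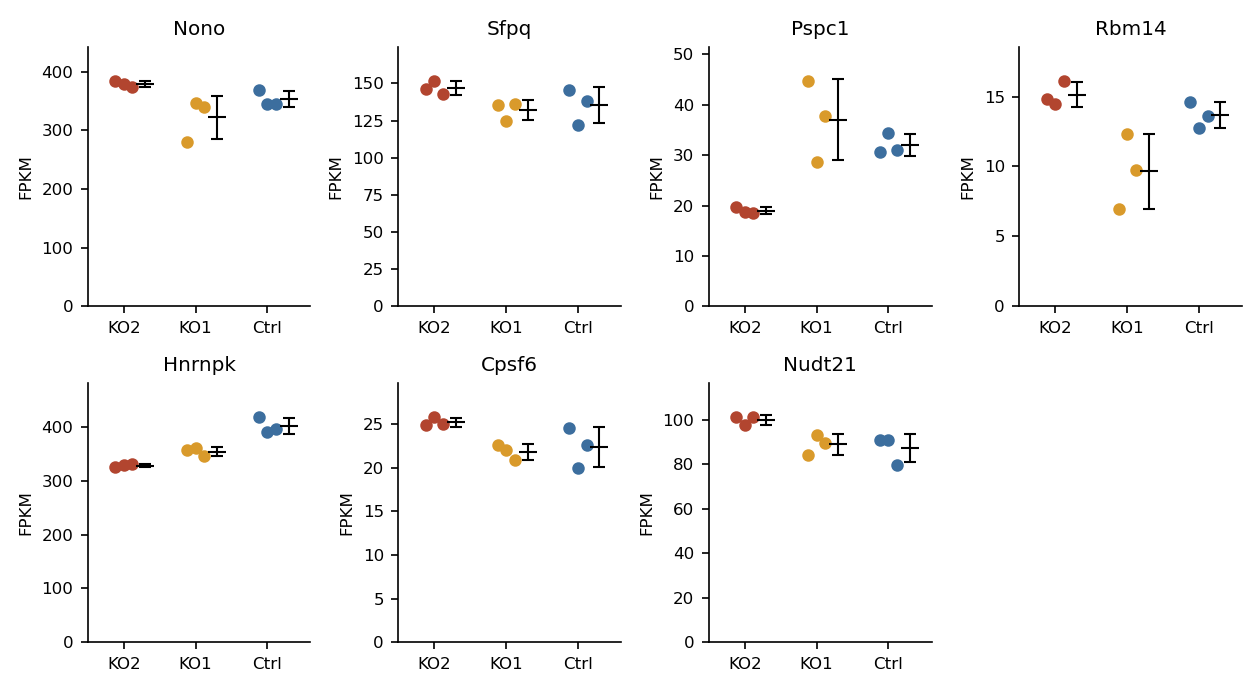
FPKM of the 7 paraspeckle protein genes in each library of KO2, KO1 and Ctrl; points are libraries, bars are the mean ± SD of 3 and each panel has its own axis from 0. Pspc1 is lowest in KO2 (19 ± 0.67 FPKM), Rbm14 in KO1 (9.67 ± 2.69 FPKM) and Hnrnpk is highest in Ctrl (401 ± 14.9 FPKM).

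Per transcript length, the order of the 9 genes differed between the groups. In KO2, Neat1 (578 FPKM) was above Nono (379), Hnrnpk (328), Sfpq (147), Nudt21 (100.0) and Cpsf6 (25.2), and below these Pspc1 (19), Malat1 (17.4) and Rbm14 (15.1) followed, of which Malat1 overlapped with both of the others. In KO1, Hnrnpk (354), Neat1 (333) and Nono (322) led with overlapping libraries, and Malat1 (0.503) was last. In Ctrl the order was Hnrnpk (401), Nono (353), Neat1 (289), Sfpq (135), Nudt21 (87.3), Malat1 (67.3), Pspc1 (32.0), Cpsf6 (22.4) and Rbm14 (13.7), with no overlap between neighbours. Neat1 had more FPKM than each protein gene in every KO2 library and fewer than Hnrnpk and Nono in every Ctrl library.

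Other paraspeckle proteins were counted over a list of 35, of which 31 were tested. In KO2 against Ctrl 16 were higher and 2 lower, 58.1% of the list beside 54.1% of all tested genes, with a median log2 fold change of 0.24. In KO1 against Ctrl 2 were lower and 29 were not called, 6.45% of the list beside 30.5% of all genes, with a median of -0.00. The largest differences in KO2 were those of Hexim1, an RNA-binding inhibitor of the elongation kinase P-TEFb, at 1.01 (adjusted p = 6.27e-05, edgeR) and of Rbmx, a splicing regulator, at 0.80 (adjusted p = 3.54e-05). Hexim1 averaged 36.6 ± 1.26 FPKM in KO2, 16.8 ± 2.82 in KO1 and 19.1 ± 2.71 in Ctrl. Hnrnpul1 was among the genes called in KO1, at -0.22 (adjusted p = 0.0338). The KO1 count of 2 fell to 1 when Ctrl replicate 1, 2 or 3, KO1 replicate 1 or KO2 replicate 1 was left out. It also rose in some settings, ranging from 1 to 3 with 1 library left out and from 1 to 4 over the other alternatives. In KO2 against KO1, 17 were higher and 4 lower, led by Hexim1 (1.23, adjusted p = 1.47e-05) and Rbmx (0.89, adjusted p = 1.57e-05).

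The cleavage and polyadenylation machinery other than Cpsf6 and Nudt21 was a list of 18, all tested. In KO2 against Ctrl 6 were higher and 3 lower (50% called beside 54.1% of all genes, median 0.03), led by Clp1, a kinase of cleavage factor II, at 0.51 (adjusted p = 0.000986, edgeR) and the scaffold Sympk at -0.46 (adjusted p = 0.000383). In KO1 against Ctrl 6 were lower (33.3% called beside 30.5% of all genes, median -0.11), led by Cpsf2 at -0.87 (adjusted p = 0.000118) and the poly(A) polymerase Papola at -0.67 (adjusted p = 6.01e-06), and 3 were called without KO1 replicate 3. For RNase P and related transfer RNA processing, the machinery that trims the ends shown above, 13 genes were tested. In KO2 2 were higher and 6 lower against Ctrl (61.5% called beside 54.1% of all genes, median -0.35, and 5 called without KO2 replicate 2), among them Rpp40 at -1.01 (adjusted p = 0.00159) and Rpp25l at 0.91 (adjusted p = 0.00236). In KO1 edgeR called 0 of the 13 against Ctrl, beside 30.5% of all genes, with 2 at an unadjusted p under 0.05. DESeq2 called 1 and limma-voom 0, and without KO1 replicate 1 edgeR called 2.

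Among 7 tested regulators of Neat1 transcription, KO2 had 2 higher and 2 lower than Ctrl, and KO1 had 2 higher and 1 lower. That is 57.1% called in KO2 and 42.9% in KO1, on few genes, beside 54.1% and 30.5% of all genes. Stat3 was at -1.58 (adjusted p = 1.78e-08, edgeR) in KO2. Hif1a, a hypoxia factor, was at -1.32 (adjusted p = 1.68e-07) in KO2 and -0.64 (adjusted p = 0.000128) in KO1. The part of these regulators in the Neat1 difference was not tested. Atf2 was at 0.28 (adjusted p = 0.00363) in KO1. With scaling by total count, 2 of the 7 were called in KO2 in place of 4. Among genes beside Malat1 and Neat1, Frmd8 (0.90), Ltbp3 (1.49) and Slc25a45 (1.35) were higher in KO2 against Ctrl, and Ltbp3 (0.61) and Slc25a45 (0.56) were higher in KO1.

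Other nuclear noncoding RNAs were set beside Malat1 and Neat1. Of 5 tested, Airn (0.95, adjusted p = 0.00209, edgeR) and Tug1 (0.60, adjusted p = 7.15e-05) were higher in KO2 against Ctrl, and Firre (0.35, adjusted p = 0.0375) in KO1. That is 40% called in KO2 and 20% in KO1, on few genes, beside 54.1% and 30.5% of all genes. Tug1 averaged 49.7 ± 1.66 FPKM in KO2, 30.6 ± 1.89 in KO1 and 33.9 ± 3.29 in Ctrl (SD, n = 3 each), and varied by 3.35% between KO2 libraries, where Neat1 varied by 16.5%. Firre was no longer called when any of 5 libraries was left out (KO2 replicate 1, KO1 replicates 1 and 3, Ctrl replicates 1 and 3). Of 12 tested noncoding host genes of small nucleolar RNAs, 3 were higher and 3 lower in KO2 against Ctrl (50% called beside 54.1% of all genes), led by Snhg12 (-1.79, adjusted p = 0.025) and Snhg1 (-1.26, adjusted p = 0.0426). Between 1 and 3 were called without KO2 replicate 1, 2 or 3 or Ctrl replicate 2 or 3. In KO1 edgeR called 0 of these 12, beside 30.5% of all genes, with 2 at an unadjusted p under 0.05. DESeq2 and limma-voom called 0, and 1 was called without KO1 replicate 1 or 2 or KO2 replicate 2. Slc7a2, whose long transcript is held in paraspeckles in mouse cells, had counts of 0, 6 and 0 in KO2, 10, 17 and 8 in KO1 and 3, 8 and 4 in Ctrl and was too low to be tested.

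In KO2 against KO1, 55% of all genes were called. The share called was 67.7% of the other paraspeckle proteins, 55.6% of the polyadenylation list and 38.5% of the RNase P list. It was 42.9% of the Neat1 regulators and 50% of the small nucleolar RNA hosts. On few genes, it was 80% of the 5 nuclear noncoding RNAs and 100% of the 4 genes beside Malat1 and Neat1. Of the polyadenylation genes 9 were higher and 1 lower, led by Clp1 (0.88, adjusted p = 1.82e-05, edgeR) and Papola (0.59, adjusted p = 5.38e-06). Of the RNase P list, 4 were higher and 1 lower, led by Rpp25l (0.91, adjusted p = 0.00221) and Pop7 (0.67, adjusted p = 0.00259), and 10 were called without KO1 replicate 2. Of the Neat1 regulators 3 were lower, Stat3 (-1.59) and Hif1a (-0.68) most, while the other 4 were not called, and 5 were called with scaling by total count. Tug1 (0.75) was higher and Pvt1 (-0.65) lower among the nuclear noncoding RNAs, of which 2 were called in each direction and 2 in all without KO1 replicate 1. Of the small nucleolar RNA hosts 1 was higher and 5 lower, with Snhg12 (-2.08) and Snhg1 (-1.50) leading, and 3 were called without KO1 replicate 1 and 2 without KO2 replicate 3.

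**Figure D5:**
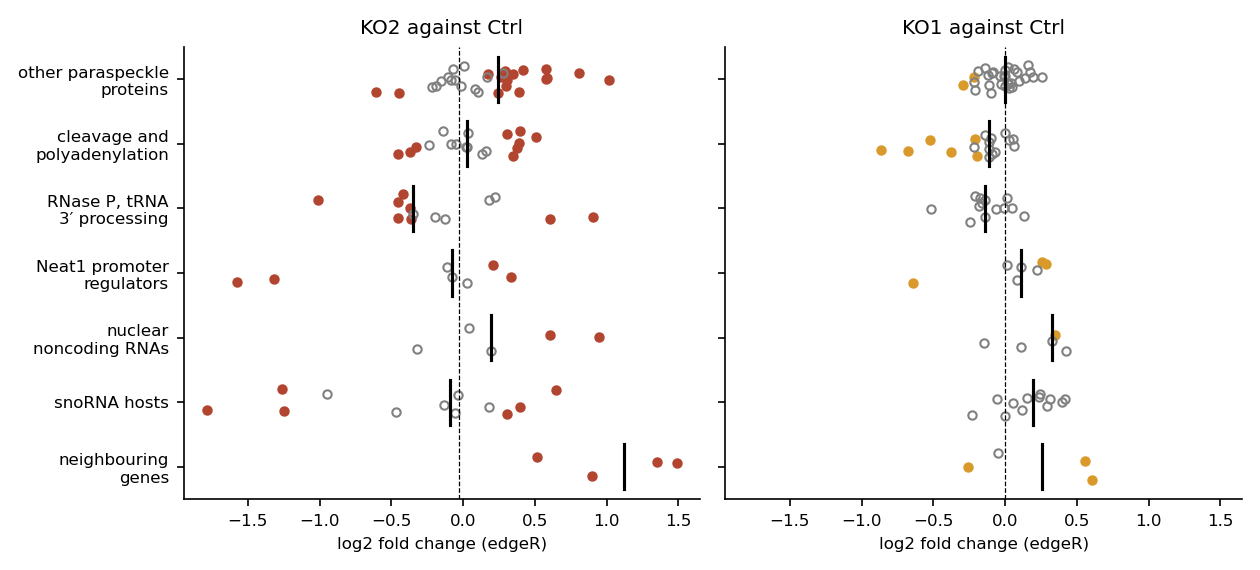
Log2 fold changes against Ctrl of the genes in each related list, KO2 at left and KO1 at right; filled points were called, black bars are list medians and the dashed line is the median of all tested genes. The list of other paraspeckle proteins has its median at 0.24 in KO2 and -0.00 in KO1.

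The genes with the profile most like Neat1 were picked from 10056 genes with a mean of at least 5 CPM, by the root mean square difference over the 9 libraries of log2 CPM less its Ctrl mean. Fendrr, also a long noncoding RNA, was nearest at 0.0811, with 238 CPM in KO2, 122 in KO1 and 111 in Ctrl, beside 1900 ± 300.1, 1017 ± 66.5 and 901 ± 109 CPM of Neat1. Hotairm1 (0.119), a noncoding RNA of the HoxA cluster, Kazald1 (0.130), Slfn8 (0.130) and Gigyf1 (0.137) followed. No gene came as near to Malat1: the closest were Ogdhl (1.57), Arap3 (1.71), Ube2ql1 (1.79), Adgre5 (1.96) and C130074G19Rik (2.09), and of these only Arap3 was lower in KO2 than in Ctrl on average, with 14.7 CPM in KO2, 3.56 in KO1 and 64.0 in Ctrl.

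Marker genes of cell types differed between the groups as well. The summed FPKM of 8 epithelial markers was 1343 to 1448 in KO2, 832 to 974 in KO1 and 489 to 503 in Ctrl, carried by Krt8 and Krt18, while Krt7, in the same list, went the other way in KO2 (0.477 FPKM in KO2, 34.1 in KO1 and 31.6 in Ctrl). The defining epithelial markers Epcam (0.0167, 0.0267 and 0.223 FPKM in KO2, KO1 and Ctrl) and Cdh1 (0.0367, 0.01 and 0.01 FPKM) were near 0 in all groups, although 4T1 is a line of mammary carcinoma, an epithelial tumour. The sum of 6 fibroblast markers was 20.4 to 21.1 in KO2, 42.0 to 45.3 in KO1 and 50.9 to 52.6 in Ctrl. Pdgfra carried most of it (20.5, 40.4 and 43.3 FPKM on average). The sum of 6 macrophage and neutrophil markers was 9.55 to 11.5, 24.0 to 32.0 and 12.2 to 17.6. It was nearly all Cd68 (10.5, 28.0 and 14.8 FPKM). The others were near 0, Ptprc among them. Of these, Itgam averaged 0.0967 FPKM in KO2, 0.00667 in KO1 and 0.03 in Ctrl, and Csf1r 0.0167, 0.02 and 0.01. Lyz2 averaged 0.27 FPKM in KO2 (0.03 to 0.75), 0.307 in KO1 (0.25 to 0.35) and 0 in Ctrl. The sums stayed at or below 0.11 for 5 T and NK cell markers and 0.76 for 4 endothelial markers. The 0.76 was that of KO2 replicate 2, beside 0.01 and 0.03 in KO2 replicates 1 and 3. KO2 replicate 2 also listed 15678 genes, beside 15102 and 15100, and had the most Malat1 and Neat1 of its group. What sets this library apart was not tested. The 4 adipocyte markers summed to 0.05 to 0.14 in KO2, 2.06 to 3.2 in KO1 and 0.23 to 0.36 in Ctrl, mostly Fabp4. The part of these marker differences in the Neat1 and Pspc1 differences was not tested.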

How the data were processed

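Libraries were read paired-end, 100 bases a read, on the BGISEQ-500 platform, per the labels. Alignment and counting used HISAT and RSEM with mm10/GRCm38, per the submitters' processing notes, without versions. The deposited tables give per gene an expected count (RSEM's estimated count, deposited without normalization), FPKM, which the authors scaled by length and library size, and a mean transcript length, the weighted length that the authors' tables list. Genes missing from a library's table were set to 0, and the lowest FPKM listed was 0.01. Between 74.7% and 75.8% of counts per library were whole, and all were rounded for testing. Samples were grouped by title; names 6 and 9 in the design text differ from the titles.

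The main test was the quasi-likelihood F test of edgeR 4.0.16, run in R 4.3.3 (genes kept by filterByExpr, TMM factors, 1 robust fit of 9 libraries, 6 residual degrees of freedom, biological coefficient of variation 11.1%). The SE of a log2 fold change is approximate, its size over the root of F. CPM are after TMM and FPKM are not, so groups can overlap in one and not in the other. DESeq2 1.42.0 and limma 3.58.1 were alternatives, with FPKM tested at pseudocounts of 1 and 0.1. The edgeR step was tested on simulated counts. Ratios, shares and lengths were compared by exact two-sided permutation over libraries. Replicates differed by more than sampling noise (chi-square per gene 7.87 to 59.9), and the highest was between KO1 replicates 1 and 2. Figures used matplotlib 3.10.9 in Python 3.11.15.

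The 9 genes and all lists (other paraspeckle proteins, polyadenylation, RNase P, Neat1 regulators, nuclear noncoding RNAs, small nucleolar RNA hosts, neighbours, cell type markers) were chosen with earlier results of these data known. Named are all 9 genes; of each list the called members with the largest absolute changes, up to 2 per comparison; the neighbours and the paraspeckle-retained RNA; and the 5 nearest profiles of Malat1 and of Neat1. Some genes that this rule takes are not reported here. Sequences are from GENCODE M21 and positions from RefSeq, both GRCm38.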

Additional observations from a re-analysis of the deposited data

Results flagged for a closer look

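The effect of the Malat1 lines, each taken against the same Ctrl libraries, differed between KO2 and KO1 for 8 of the 9 genes by the test of the difference itself, KO2 against KO1 in edgeR with adjustment over all tested genes, where 55% of all genes were called. The difference of the log2 fold changes was 5.21 for Malat1, 0.90 for Neat1, 0.34 for Nono, 0.24 for Sfpq, -0.86 for Pspc1, 0.75 for Rbm14, 0.31 for Cpsf6 and 0.28 for Nudt21. Pspc1 was the only one of these with less RNA in KO2 than in KO1, in every library. The 3 KO2 libraries were higher than all 3 KO1 libraries in FPKM for each of the others. These genes were listed because they were called, and the share of all genes separated in this way was not counted.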

How the results depend on the processing

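For the 9 genes in 3 comparisons, 503 of 540 combinations with an alternative kept their side of the threshold, 24 lost the call and 13 gained one. The sign changed in 17 combinations, none of them called: Hnrnpk in KO2 against KO1 (7, up to 0.04), and in KO1 against Ctrl Nudt21 (8, up to 0.04), Sfpq (1, at 0.03) and Cpsf6 (1, at 0.01). Malat1 was called in all settings and comparisons. Neat1 was called in KO2 in all of them, with log2 values of 0.96 to 1.19 when 1 library was left out, and in KO1 in none. Of the 9 genes, 3 were called in KO1 against Ctrl, but 1 with the 2 compared groups alone in the fit, 1 with the replicate number as a block, and 1 to 4 with 1 library left out; the lost calls were Rbm14 (adjusted p = 0.0731 and 0.052) and Hnrnpk (0.0575 and 0.0519). In KO2 against Ctrl 6 of the 9 were called, and 9 with the 2 compared groups alone, where Nono, Sfpq and Rbm14 passed. Same-numbered libraries did not deviate together (correlations -0.34 to 0.05, beside 0.34 for Ctrl replicate 2 with KO1 replicate 1). These values show no pairing by number but, with 3 libraries a group, cannot exclude it. The block called 3365 genes in KO1 against Ctrl, beside 4177.

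Scaling by total count moved the median log2 change of all genes to -0.11 in KO2 against Ctrl and -0.13 in KO2 against KO1. The share of calls that were higher was then 35.8% and 33.4%, beside 45.5% and 46.4% with TMM. Under it Cpsf6 in KO2 against Ctrl (adjusted p = 0.0809), and Sfpq (0.187) and Nudt21 (0.0647) in KO2 against KO1, were not called. The Neat1 to Malat1 ratio with 1 library left out, a check chosen after seeing the data, was 7.62 to 8.27 times Ctrl in KO2 and 143 to 166 times in KO1. With 3 libraries per group, the intervals given above limit what can be called for changes as small as those of the protein genes.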
